A study of Mus musculus with 2 samples.

Results

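The transcription factor genes Egr1, Egr2, Egr3, Nr4a1, Nr4a2, Nr4a3, Nfatc1, Nfatc2, Atf3 and Myc, which T cells switch on or activate when the antigen receptor signals, were read in mouse CD8+ T cells on day 13 of culture. They were chosen by name as the probe sets whose annotated symbol is exactly one of these, and each of the 10 genes, of 22180 named genes with a value, was read by 1 probe set. The study has 1 array of cells grown with bezafibrate at 30 µM and 1 array of control cells grown with DMSO, its solvent. Cells of both cultures were naive CD8+ T cells stimulated by beads that carry antibodies to CD3 and CD28, with human interleukin-2 at 100 U/mL, and bezafibrate, a fibrate drug that activates the peroxisome proliferator-activated receptors, was present throughout. Strain, age and the number of animals behind each culture are not stated in these sources, and antibody beads stand in for antigen on presenting cells. Neither group was replicated, so no value has an error and no statistical test was made; ratios compare 2 arrays, whose number limits the precision.

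When the T cell receptor is engaged, calcium entry activates the phosphatase calcineurin, which sends NFAT proteins to the nucleus, while the Ras and ERK kinases act on serum response factor. Both arms switch on the EGR and NR4A genes within hours, and their transcripts are short-lived, so they are used as a record of recent receptor signalling. EGR2, EGR3 and the NR4A proteins are also known as brakes on T cell activation. MYC drives growth and nutrient use after activation, and ATF3 is a factor of the basic leucine zipper class that responds to stress.

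By day 13 the 10 genes fell into a group well above background and a group at or near it. Values are log2 signals, so a step of 1 is a doubling, and background is read from 1391 olfactory and vomeronasal receptor genes that T cells are not known to use. The 95th percentile of those genes was 4.68 on the bezafibrate array and 4.71 on the DMSO array, and lower signals are called within background. Egr1, Nfatc1, Nfatc2 and Myc stood 2.67 to 4.57 above this limit on the bezafibrate array and 2.76 to 4.70 above it on the DMSO array. Egr2, Egr3, Nr4a1, Nr4a2 and Atf3 stood 0.05 to 0.59 above it on the bezafibrate array and 0.38 to 0.64 above it on the DMSO array, and Nr4a3 was below it on both. All 10 genes, Nr4a3 within background included, read lower on the bezafibrate array, with log2 ratios of bezafibrate over DMSO from −0.36 for Atf3 to −0.06 for Nfatc2 and a median of −0.16. Over all named genes, 50% read lower with bezafibrate and the median ratio was 0.00. The 10 genes were chosen with earlier results of these data known, so their shared direction is a description and not a test. Of the 10 genes, 0 differed 1.5-fold in either direction; of 11448 genes above the floor, 0.664% were 1.5-fold or more higher with bezafibrate and 0.524% were 1.5-fold or more lower. The floor is the median signal of all named genes, 4.85 on the bezafibrate array and 4.88 on the DMSO array, and a gene counts as above it if either array exceeds its own. All members except Nr4a3 were above the floor, Atf3 through its DMSO array alone.

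**Figure D1:**
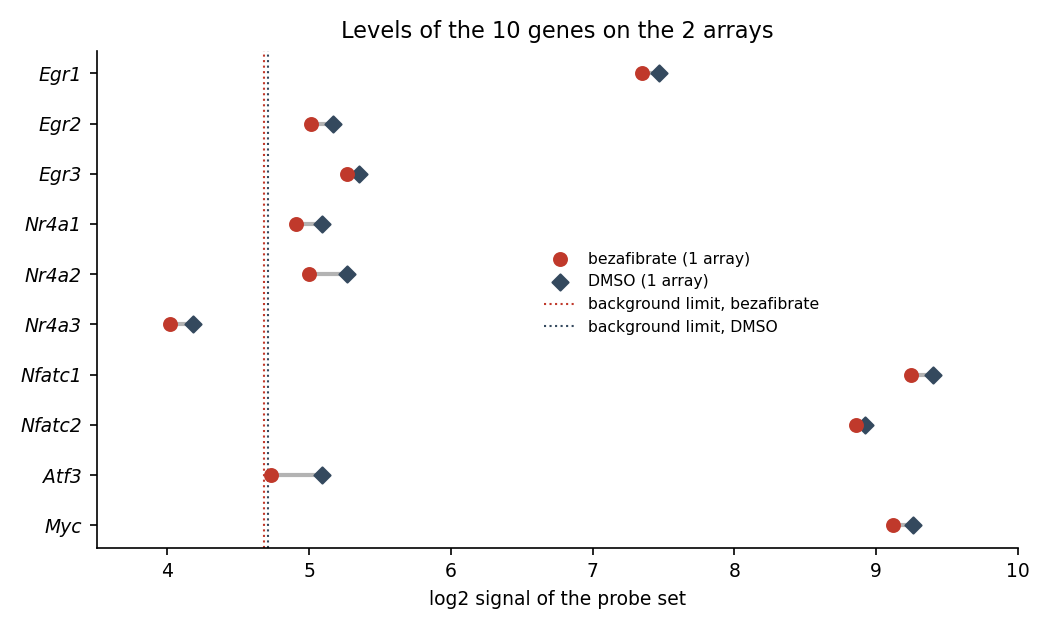
The plot of levels gives the log2 signal of each gene on the bezafibrate array (circles) and the DMSO array (diamonds), with dotted lines at the background limits of 4.68 and 4.71. The circle lies left of the diamond in all 10 genes, and both signals of Nr4a3 lie below the limits. Signals of different probe sets are not comparable as amounts of RNA.

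Among the EGR genes, which encode zinc finger transcription factors, only Egr1 was far from background. Egr1, the founding member and a target of serum response factor, had a log2 signal of 7.35 with bezafibrate and 7.47 with DMSO, a ratio of −0.12. Egr2 had 5.01 with bezafibrate and 5.17 with DMSO, a ratio of −0.16. Egr3, which acts in part redundantly with Egr2 in T cells, had 5.27 with bezafibrate and 5.35 with DMSO, a ratio of −0.08. The 3 ratios thus correspond to signals 8.0%, 10.4% and 5.51% lower with bezafibrate. RMA, the method behind the deposited values, can shrink differences near background, so the ratios of Egr2 and Egr3 may understate a difference in RNA. The log2 ratios of the olfactory and vomeronasal receptor genes had a robust standard deviation, a measure of spread, of 0.31. The ratios of Egr2 and Egr3 were smaller than that in size. In a bulk culture, fewer cells with a transcript and less of it per cell cannot be told apart.

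The NR4A genes encode orphan nuclear receptors, and all of them read at or close to background at this time. Nr4a1 encodes NUR77, whose reporter is widely used to read the strength of receptor signalling, and it had a log2 signal of 4.91 with bezafibrate and 5.09 with DMSO, a ratio of −0.18. Nr4a2, which encodes NURR1, had 5.0 with bezafibrate and 5.27 with DMSO, a ratio of −0.28, or 17.4% lower. Nr4a3, which encodes NOR1, had 4.02 with bezafibrate and 4.18 with DMSO; both values are within background, so no direction is read from it. Even Nr4a2, the farthest from background of the NR4A genes, stood 0.32 above the limit with bezafibrate and 0.56 above it with DMSO. The ratios of Nr4a1 and Nr4a2 were smaller in size than 0.31, the robust standard deviation of the olfactory and vomeronasal receptor genes.

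Atf3 had the lowest ratio of the 10 genes. Its log2 signal was 4.73 with bezafibrate and 5.09 with DMSO, a ratio of −0.36, or 1.28-fold lower. In size this ratio was only a little above 0.31, the robust standard deviation of the olfactory and vomeronasal receptor genes. The bezafibrate signal was 0.05 above the background limit, so the value is close to what silent genes give, and Atf3 passed the floor through the array where it was higher. At a smaller limit, a log2 ratio of −0.32, Atf3 was the member counted as lower, which 6.32% of genes above the floor passed in the same direction. Without Atf3 the median ratio of the other 9 genes was −0.15.

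The NFAT genes and Myc gave bright signals on both arrays. Nfatc1, which is induced by receptor signalling and amplifies its own transcription, had a log2 signal of 9.25 with bezafibrate and 9.40 with DMSO, a ratio of −0.15. Nfatc2, the family member already present in resting T cells, had 8.86 with bezafibrate and 8.92 with DMSO, a ratio of −0.06. Myc had 9.12 with bezafibrate and 9.26 with DMSO, a ratio of −0.14, or 9.29% lower. These 3 differences were the ones least touched by background.

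Each of the 10 ratios lay inside the central 95% of genes of like signal. For this description each gene was set among the 500 other genes nearest to it in mean signal. The central 95% of those ran from −0.47 to 0.41 around Atf3, and 7.4% of them had a ratio as low as that of Atf3. Around Nr4a2 it ran from −0.41 to 0.39, with 11.0% as low, and around Nfatc1 from −0.33 to 0.34, with 15.6% as low. For the other 7 genes the share as low ran from 20.4% for Myc to 42.4% for Egr3. No gene of the 10 thus stood apart singly among genes of like signal.

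**Figure D2:**
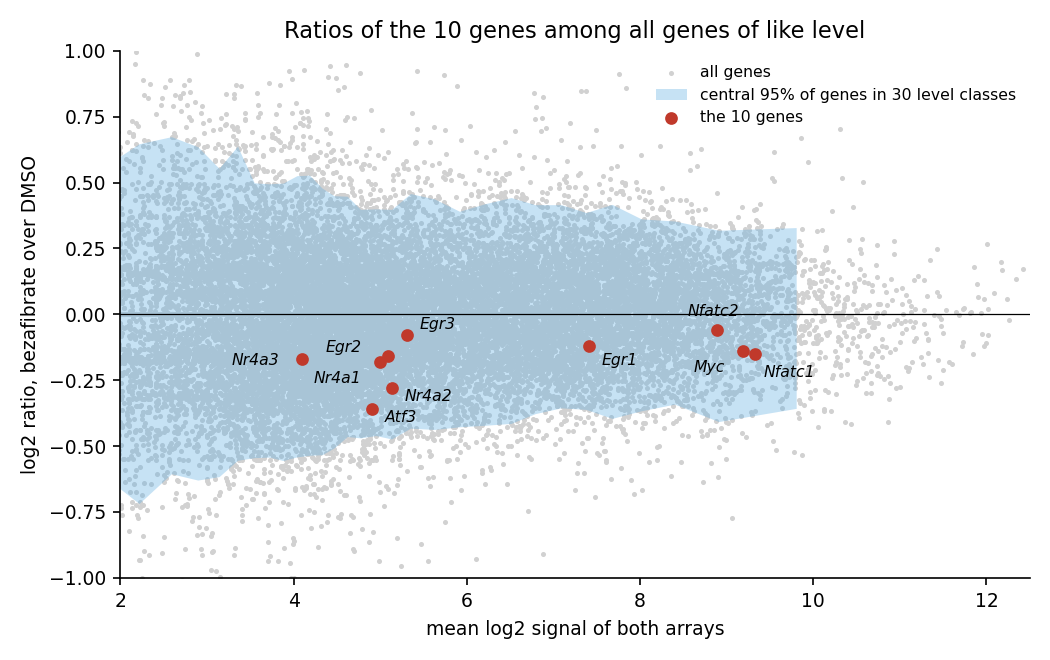
The plot of ratio against level sets the log2 ratio of bezafibrate over DMSO against the mean log2 signal of both arrays for all named genes (grey), with the central 95% of genes in each of 30 level classes shaded and the 10 genes in red. The 10 points lie below 0, from −0.06 to −0.36, and inside the shaded band. Genes with ratios beyond 1 or −1 (40 in all) are outside the plot, as are genes whose mean signal lies beyond the horizontal axis.

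Ratios followed gene length across the arrays, and the 10 genes range from short to long. Of genes above the floor with a RefSeq length, those of 2999 to 6013 bp had a median ratio of −0.09 and 67.3% of them read lower with bezafibrate, while those of 100116 bp or more had a median of 0.09 and 30.4% read lower. Egr1, Egr3 and Myc are in the short class, at 3750, 5297 and 5021 bp. After subtracting the median ratio of a class of similar level and length, a step added after the data were seen, Egr1 was at 0.01, Myc at −0.01 and Egr3 at −0.02. Nfatc1 and Nfatc2, at 106867 and 125248 bp, are in the long class, and after the same subtraction they were at −0.27 and −0.18. Atf3 was then at −0.32, Nr4a2 at −0.22, Nr4a3 at −0.14, Egr2 at −0.13 and Nr4a1 at −0.12. So 9 of the 10 genes were below the median of their class, as were 49% of all genes with a length, and the median over the 10 was −0.13. The part of gene length in the ratios was not tested further. Beside the lists that follow, the same subtraction is given for their counts.

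**Figure D3:**
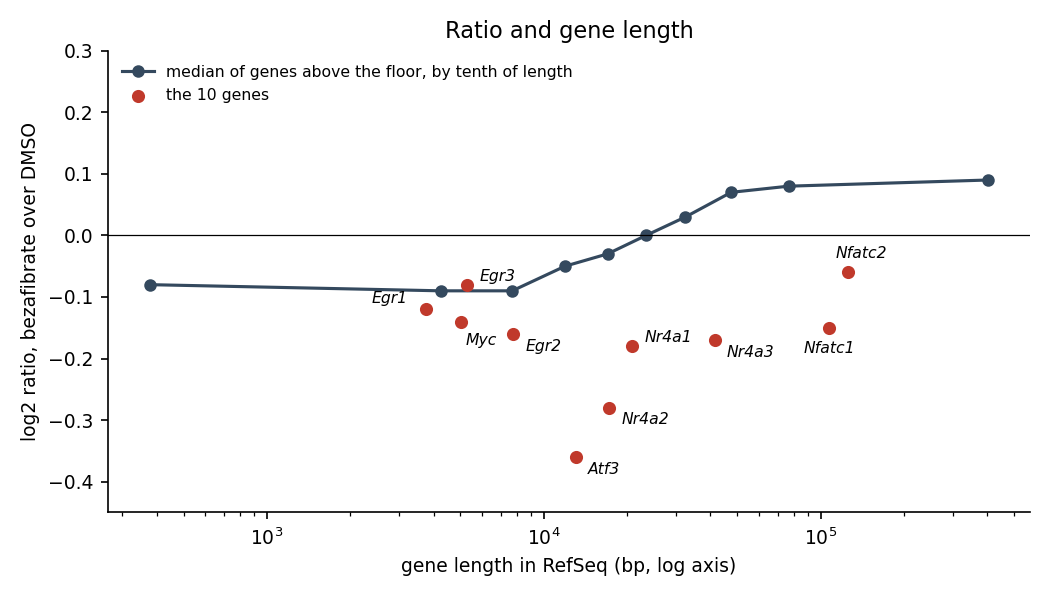
The plot of ratio and gene length shows the log2 ratio of each of the 10 genes (red) against its RefSeq length on a log axis, with the median ratio of genes above the floor in 10 classes of gene length (line). Egr1, Egr3 and Myc lie close to the line, whereas Nfatc1 and Nfatc2 lie below 0 where the line is above 0.

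The promoters of Nr4a1, Nr4a2, Nr4a3, Egr2 and Atf3 are given because the NR4A genes share a sequence feature that the choice of genes did not use. The sequences are from RefSeq, build GRCm38.p6, and run 5′ to 3′ on the gene's strand from 250 bases before to 50 bases after a transcript start. Windows of 6 genes, these and Nfatc2, were searched; promoters of Egr1, Egr3, Nfatc1 and Myc were not used here. Capitals mark every TGACG, the core of the cAMP response element bound by CREB and ATF factors, on either strand (CGTCA on the other), and the CArG box bound by serum response factor.
Nr4a1, chr15:101266596-101266895, plus strand: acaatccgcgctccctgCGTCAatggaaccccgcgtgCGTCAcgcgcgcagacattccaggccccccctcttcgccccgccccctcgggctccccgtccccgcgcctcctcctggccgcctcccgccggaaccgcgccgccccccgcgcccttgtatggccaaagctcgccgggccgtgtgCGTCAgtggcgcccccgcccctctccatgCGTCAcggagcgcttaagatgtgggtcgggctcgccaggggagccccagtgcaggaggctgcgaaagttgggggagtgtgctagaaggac
Nr4a2, chr2:57123954-57124253, minus strand: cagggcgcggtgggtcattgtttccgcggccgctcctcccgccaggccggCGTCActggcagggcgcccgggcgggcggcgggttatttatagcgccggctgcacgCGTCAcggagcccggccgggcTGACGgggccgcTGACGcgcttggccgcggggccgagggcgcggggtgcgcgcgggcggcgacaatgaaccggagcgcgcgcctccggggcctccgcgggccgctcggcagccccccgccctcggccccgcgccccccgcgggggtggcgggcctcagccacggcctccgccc
Nr4a3, chr4:48045055-48045354, plus strand: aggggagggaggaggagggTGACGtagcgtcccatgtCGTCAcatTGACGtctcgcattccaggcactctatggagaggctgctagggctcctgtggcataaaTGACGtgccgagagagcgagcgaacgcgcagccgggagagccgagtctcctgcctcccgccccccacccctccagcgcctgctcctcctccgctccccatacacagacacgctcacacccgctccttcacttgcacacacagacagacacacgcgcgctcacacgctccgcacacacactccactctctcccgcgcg
Egr2, chr10:67537619-67537918, plus strand: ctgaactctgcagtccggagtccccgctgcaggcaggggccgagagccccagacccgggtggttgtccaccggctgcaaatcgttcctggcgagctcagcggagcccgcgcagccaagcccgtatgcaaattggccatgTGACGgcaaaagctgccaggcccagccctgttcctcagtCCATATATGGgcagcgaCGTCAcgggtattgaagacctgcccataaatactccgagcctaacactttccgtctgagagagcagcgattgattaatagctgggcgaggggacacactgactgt
Atf3, chr1:191183284-191183583, minus strand: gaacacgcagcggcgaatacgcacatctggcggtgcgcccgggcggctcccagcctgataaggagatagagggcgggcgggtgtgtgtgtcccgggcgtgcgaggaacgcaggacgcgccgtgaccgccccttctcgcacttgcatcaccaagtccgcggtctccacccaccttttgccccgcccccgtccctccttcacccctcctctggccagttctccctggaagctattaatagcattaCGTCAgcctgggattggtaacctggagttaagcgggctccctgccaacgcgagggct
Egr2 had 5 windows, and the one with the most marked matches is shown; the NR4A genes and Atf3 had 1 each.

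The windows of Nr4a1, Nr4a2 and Nr4a3 each held 4 TGACG cores. Of 32851 RefSeq promoter windows of this length, 20.8% held at least 1 such core, 5.01% at least 2 and 0.231% at least 4. The Egr2 window held 2 cores, at 111 and 55 bases before the start, with a CArG box between them. This window was picked from 5 for its matches with both motifs, and the CArG box was added after the promoters were read. The shares of all windows with at least 2 cores or with a CArG box (1.63%) thus cannot be set against it. The limits of 2 and 4 cores equal the counts in the Egr2 and NR4A windows. The Atf3 window held 1 core, 7 bases before the start. The EGR site (GCGNGGGCG) was matched in the Nr4a1 and Nr4a2 windows, and in 5.55% of all windows. The NFAT core (GGAAA) was matched in the Egr2, Nr4a2 and Nfatc2 windows and is common, in 61.3% of all windows. The full cAMP response element, the AP-1 site (TGANTCA), the E-box (CACGTG), the NR4A site NBRE, the serum response element core of the Fos promoter and the PPAR response element of the direct repeat type had 0 matches in the 6 windows. The shares of all windows that hold them were 1.79%, 7.81%, 7.15%, 1.51%, 0.0639% and 0.0396%. All motifs were searched on both strands, a TGACG core also lies inside each full element, and a match describes letters in a window, not binding.

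**Figure D4:**
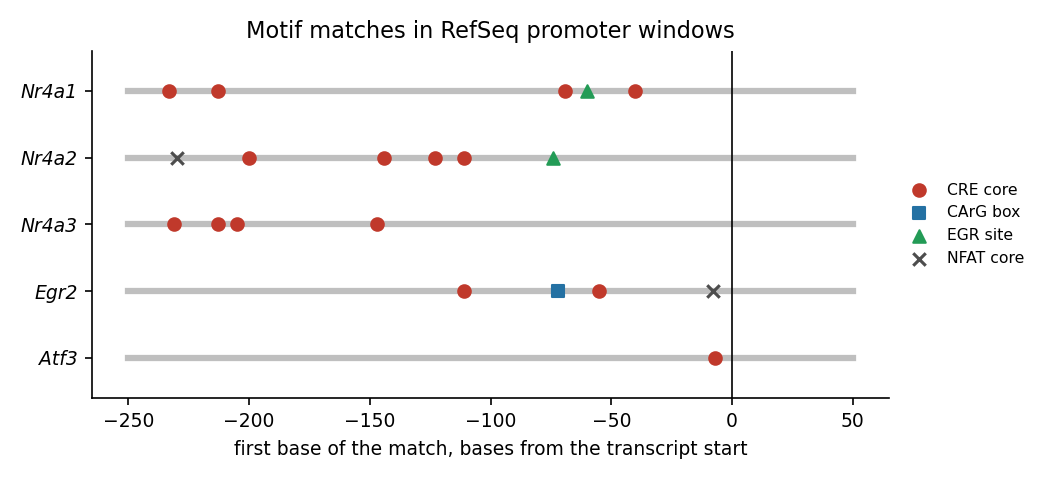
The map of motif matches shows, for the 5 promoter windows, the first base of each match in bases from the transcript start (vertical line). Circles are TGACG cores, the square is the CArG box, triangles are EGR sites and crosses are NFAT cores; each NR4A window carries 4 circles.

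Other immediate-early genes were evenly divided in direction as deposited. Of 23 genes of the AP-1 and immediate-early list, 22 had a value, 11 were higher and 11 lower with bezafibrate, and the median ratio was −0.01. The 20 above the floor split into 10 higher and 10 lower, with a median of −0.01. With level and length subtracted, 6 of the 22 were lower and the median was 0.07. Fosb had a ratio of 0.15. Fos, a partner in AP-1, had a log2 signal of 5.12 with bezafibrate and 4.78 with DMSO, a ratio of 0.34. Fos passed the floor only through the bezafibrate array, where it was higher. Jun, Junb and Jund, which encode its JUN partners, had ratios of −0.16, −0.17 and −0.22, and a second probe set of Jund had −0.81. Ier3 was lowest at −0.27. The antiproliferative gene Btg1 was at 0.22. Egr4, the fourth EGR gene, was within background on both arrays, at 4.48 with bezafibrate and 3.93 with DMSO. Cd69, the early activation antigen, was bright, at 9.48 with bezafibrate and 9.53 with DMSO.

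Genes that feed back on receptor signalling were also divided. All 18 dual-specificity phosphatase, Sprouty and NF-κB inhibitor genes were above the floor, and they had a median ratio of 0.06 with 10 higher and 8 lower; with level and length subtracted, 6 of 18 were lower and the median was 0.08. Dusp2, a phosphatase of ERK that is induced with the members, had 9.23 on both arrays. Nfkbid, an atypical inhibitor of NF-κB induced by the receptor, had 7.51 with bezafibrate and 7.35 with DMSO. The highest ratios were in Nfkbiz at 0.20 and Spry1 at 0.18, and the lowest in Spry2 at −0.33, within background with bezafibrate, and Nfkbib at −0.29. Spry1, at 4.87 with DMSO, passed the floor only through the bezafibrate array, where it was higher. Spry2 passed it only through the DMSO array, where it was higher.

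Calcium, calcineurin and NFAT control genes had a median ratio of −0.01, with 11 higher and 12 lower of 23 with a value. The 20 above the floor split into 11 higher and 9 lower, with a median of 0.01. With level and length subtracted, 18 of the 23, genes below the floor included, were lower. Their median was then −0.11, near the −0.13 of the 10 transcription factor genes. Rcan1, a calcineurin inhibitor that is itself a target of NFAT, had 5.59 with bezafibrate and 5.64 with DMSO. Nfatc3, another NFAT gene of T cells, had 9.37 with bezafibrate and 9.36 with DMSO, against ratios of −0.15 for Nfatc1 and −0.06 for Nfatc2. The calcium channel genes Orai3 and Orai1 had the lowest ratios above the floor, −0.41 and −0.19. Dyrk2, a kinase that phosphorylates NFAT, had 0.32 on its brighter probe set and −0.44 on the other, and the calcineurin inhibitor Cabin1 had 0.16.

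The 12 EGR co-repressor and EGR-dependent genes had a median ratio of −0.06, with 5 higher and 7 lower (6 of 12 lower and a median of 0.00 after the subtraction). The 11 above the floor split into 5 higher and 6 lower, with a median of 0.00. Nab2, which encodes a co-repressor that EGR factors induce, had 7.19 with bezafibrate and 7.34 with DMSO, a ratio of −0.15, and a second probe set had 0.02. Cblb, a ubiquitin ligase that restrains receptor signalling, had a ratio of 0.15, Tnfsf11 0.11 and Ndrg1 −0.25. Serum response and CREB factor genes had a median of 0.00, with 9 higher and 9 lower of 19 with a value (13 lower and a median of −0.05 after the subtraction). Among the 18 above the floor, 8 were higher and 9 lower, with a median of −0.01. The ERK-responsive cofactor Elk4 had 8.07 with bezafibrate and 7.66 with DMSO, the serum response cofactor Mrtfb a ratio of 0.14, the CREB coactivator Crtc1 −0.29 and Hdac5 −0.26.

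Partners and targets of MYC, which had a ratio of −0.14 itself, lay on both sides of 0. Of 13 MYC partners and antagonists, 6 were higher and 7 lower, with a median of −0.04 (7 lower and 0.00 after the subtraction). Among the 12 above the floor, 5 were higher and 7 lower, with a median of −0.04. Max, the obligate partner of MYC, had 8.56 with bezafibrate and 8.72 with DMSO, Mlx and Mxd4 had ratios of −0.20 and −0.19, and Mga and Fbxw7 had 0.27 and 0.12. Of 24 textbook MYC targets with a value, 13 were higher and 11 lower, with a median of 0.06. With level and length subtracted, 8 of the 24 were lower and their median was 0.10, and Myc itself was at −0.01. Odc1, the first enzyme of polyamine synthesis, had 9.07 with bezafibrate and 9.31 with DMSO, a ratio of −0.25, and Tfap4 had −0.23. The ribosome biogenesis genes Nolc1 and Polr1b had ratios of 0.34 and 0.27.

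The list of ATF, BATF and stress response genes had a median of −0.01, with 7 higher and 9 lower of 17 (8 lower and a median of 0.06 after the subtraction). Among the 15 above the floor, 5 were higher and 9 lower, with a median of −0.05. Atf4, the main effector of the integrated stress response and an inducer of Atf3, had 8.58 with bezafibrate and 8.66 with DMSO. Ddit3, which encodes CHOP, had a ratio of −0.13. Batf, which pairs with JUN proteins and IRF4 in T cells, had 6.20 with bezafibrate and 6.55 with DMSO, a ratio of −0.35, and Batf2 had −0.24. Batf2, at 4.83 with bezafibrate, passed the floor only through the DMSO array, where it was higher. Eif2ak4 and Atf7 had 0.26 and 0.25.

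Surface, secreted and some intracellular genes that the receptor induces were lower in 11 and higher in 8 of 19, with a median of −0.07 (10 lower and −0.01 after the subtraction). These 19 include Il2, Ifng, Il3, Csf2, Cd40lg and Nrn1, which were within background on both arrays. No direction is read from those genes. Bright on both arrays were Tnf, at 10.05 with bezafibrate and 10.21 with DMSO, Bhlhe40, at 10.27 and 10.26, and Tnfrsf9, at 9.79 and 9.88. The 13 genes that passed the floor split into 8 with a negative ratio and 5 with a positive one, and their median was −0.10. Xcl1, a chemokine, had a log2 signal of 7.05 with bezafibrate and 7.65 with DMSO, 1.52-fold lower, and was the only gene of these 9 lists above the floor that differed 1.5-fold on its brightest probe set; the dimmer probe set of Jund, at −0.81, also passed. Ccl4, another chemokine, had 4.99 with bezafibrate and 5.30 with DMSO, a ratio of −0.31. Irf4, whose level tracks receptor signal strength, had 5.95 with bezafibrate and 6.15 with DMSO, a ratio of −0.20. Il2ra, which encodes a chain of the interleukin-2 receptor, and the costimulatory receptor gene Tnfrsf4 had ratios of 0.12 and 0.28.

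**Figure D5:**
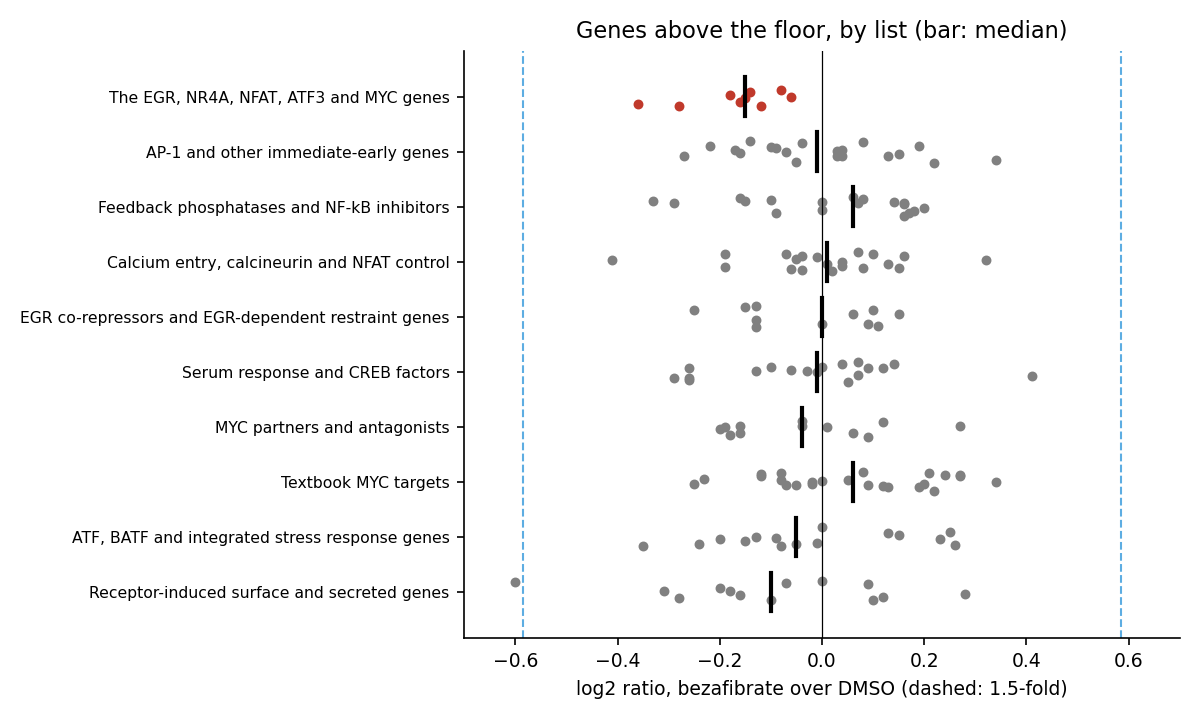
The plot by list shows the log2 ratio of bezafibrate over DMSO for each gene above the floor, with the 9 members above the floor in red in the top row and the 9 lists under it in grey; bars are medians and dashed lines mark 1.5-fold. The top row lies wholly below 0 with a median of −0.15, while each list has genes on both sides of 0 and medians from −0.10 to 0.06.

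Markers of CD8 T cells were bright on both arrays and also read lower with bezafibrate. Of 9 listed markers 6 had a value, and all 6 were lower, with ratios from −0.30 for Cd3d to −0.06 for Cd3e, and their summed linear signal was 6990 with bezafibrate and 7760 with DMSO. Their median ratio of −0.18 was close to that of the 10 transcription factor genes, 5 of the 6 stayed lower with level and length subtracted, and the part of these markers in the ratios was not tested. Of the markers of other cells that had a value, 1 of 3 for CD4 T cells, 4 of 5 for B cells, 4 of 6 for macrophages and monocytes, 4 of 5 for dendritic cells, 2 of 5 for natural killer cells and 5 of 5 for neutrophils were within background on both arrays. The summed signals with bezafibrate and DMSO were 96.7 and 82.8 for CD4 T cells, 81.7 and 96.6 for B cells, 190 and 189 for macrophages and monocytes, 98.5 and 106 for dendritic cells and 73.1 and 82.1 for neutrophils. All these sums, that of CD8 T cells included, add signals of different probe sets and are not amounts of RNA or cells. They include markers within background where a list has such markers, and the neutrophil sums hold no other signal. The natural killer sums, 1650 and 1660, came mostly from Eomes, which CD8 T cells also express, while Fcer1g had 5.64 with bezafibrate and 6.57 with DMSO. Ncr1, a defining natural killer marker, was within background on both arrays. The B cell marker Cd79b was above background on both arrays, at 4.85 with bezafibrate and 5.41 with DMSO, a ratio of −0.55. Among macrophage and monocyte markers, Cd68 had 6.92 with bezafibrate and 6.91 with DMSO, and Csf1r was above background on both arrays. The dendritic cell marker Zbtb46 was within background with bezafibrate, at 4.65, and above it with DMSO, at 4.85. Whether other cells were present was not tested. Of the CD4 T cell markers, which all read higher with bezafibrate, Cd4 was within background at 4.29 with bezafibrate and 3.88 with DMSO, Foxp3 had 5.02 with bezafibrate and 4.95 with DMSO, and Zbtb7b had 5.48 with bezafibrate and 5.22 with DMSO.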

How the data were processed

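Per the labels' protocols, biotin-labelled targets were made from total RNA with a kit that primes along whole transcripts. The deposited values are log2 signals per probe set; the submitters' processing notes name RMA and Affymetrix Expression Console, with versions and genome build not given in the sources used here. Because RMA equalises arrays, ratios are relative to other genes.

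Of 41801 probe sets, 8008 were blank. Of the 33793 with values, 23521 named 1 gene, and the brightest stood for a gene with several. Gene lengths came from RefSeq (GRCm38.p6), for 99.8% of genes. Depth does not apply to arrays. Lists were matched by symbol or RefSeq gene number, and 167 of 177 entries had a value.

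The 10 genes, lists and alternatives were chosen with earlier results of these data known. Named list genes are the 2 highest and 2 lowest above the floor in each list, plus a fixed set. Cell type markers, and receptor-induced genes named as within background or bright on both arrays, are outside this rule. The floor, fold limit, normalization and choice of probe set were varied; the CArG box was added after the promoters were read. Python 3.11.15, numpy 2.4.6, pandas 2.3.3, statsmodels 0.14.6 and matplotlib 3.10.9 were used. The code that makes the fold calls was run on simulated data with planted changes past the fold limit. That checks the code alone, not how reliable calls on these arrays are.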

Additional observations from a re-analysis of the deposited data

How the results depend on the processing

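The deposited ratios moved by at most 0.04 under quantile normalization or a loess curve on level, and all 20 values were below 0, from −0.34 to −0.05. Subtraction of a class of similar level and length, added after seeing the data, moved them by up to 0.13. It took Egr1 to 0.01, Myc to −0.01 and Egr3 to −0.02, and Nfatc1 to −0.27 and Nfatc2 to −0.18. The median over the genes ran from −0.16 to −0.13. The mean or smallest ratio over probe sets and ambiguous probe sets could not change these values, since each gene has 1 probe set, and centring on genes above the floor left them as they were. The count of members 1.5-fold or more lower was 0 as deposited and 1 at a log2 limit of −0.32. That gene is Atf3, which passed the floor only through the DMSO array, where it was higher. Above the floor, 76 genes passed 1.5-fold upward and 60 downward; these counts were 667 and 724 at a log2 limit of 0.32, 10 and 0 at 2-fold, and 285 and 276 with no floor. No paired analysis was possible because each group has 1 array. The planned comparison of protein sequences was not run. The main limits are the single array per group and, for Egr2, Egr3, the NR4A genes and Atf3, signals at or near background.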
